A study of Mus musculus with 378 samples.

Results

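CD8 T cells from mouse tumours were compared between cells that held RNA of all 3 of the inhibitory receptor genes Pdcd1, Lag3 and Havcr2 and cells that held RNA of none. Of 94 WT and 92 KO single-cell CD8 libraries, 67 and 74 were kept because at least 1000 of their genes lay above 0 FPKM, an expression level scaled for transcript length and library size. Triple-positive cells, with all 3 genes above 0 FPKM, numbered 40, and triple-negative cells, with all 3 at 0, numbered 60. The remaining 41 kept cells had 1 or 2 of the genes. The whole series holds 374 single cells.

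The cells were tumour-infiltrating T cells of C57BL/6 mice bearing B16F10 melanoma, a transplanted mouse tumour line, sequenced with Smart-seq2, a full-length cDNA method. WT mice and mice labelled IL27raKO, in which the IL-27 receptor gene Il27ra is named as the target, both carried the tumour. No age or other treatment is named in the labels, and they do not say how many animals gave the cells, so each genotype is 1 sample of CD8 cells and its cells are not replicates. No test, p-value or standard error was therefore made. Each difference is given within WT and within the cells labelled KO, with SDs over cells. The cells were selected on Pdcd1, Lag3 and Havcr2, so those 3 genes are left out of the results, and every other gene is described from the same contrast that formed the classes.

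Pdcd1 encodes PD-1, Lag3 encodes LAG-3 and Havcr2 encodes TIM-3, inhibitory receptors that appear on T cells after antigen stimulation and stay on them when antigen persists, as in tumours and chronic infection. T cells that carry several of them together are known as exhausted and are marked by the nuclear factor TOX. Cells that still hold TCF-1, encoded by Tcf7, form a less differentiated pool that can renew them.

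Triple-positive cells made up 32 of 67 WT cells (47.8%, exact Clopper-Pearson 95% interval 35.4 to 60.3%, counting error only) and 8 of 74 cells labelled KO (10.8%, 4.78 to 20.2%). For triple-negative cells the share was 18 of 67 (26.9%, 16.8 to 39.1%) in WT, and in KO it was 42 of 74 (56.8%, 44.7 to 68.2%). The classes thus took most of their cells from different genotypes, and the main value for each gene was the mean of its WT and KO differences, with equal weight. Among the 41 cells outside both classes, Pdcd1 with Lag3 was the most frequent pair, in 12 cells, and Lag3 alone was found in 10. The receptor genes that chose the triple-positive cells were mostly high there, with median FPKM in WT of 2153 for Pdcd1, 1325 for Lag3 and 551 for Havcr2. Just inside the threshold, the lowest values in WT triple-positive cells were 2.60 FPKM for Havcr2 and 4.53 FPKM for Lag3. Just outside it, the lowest values above 0 in cells with 1 or 2 of the genes were 0.12 FPKM for Lag3 in WT and 0.36 FPKM for Havcr2 in KO.

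Triple-positive cells had more genes detected than triple-negative cells in both genotypes. In WT the number of genes above 0 FPKM ran from 2325 over a median of 3945 to 6363 in triple-positive cells, and from 1084 over 2495 to 3209 in triple-negative cells. In cells labelled KO it ran from 2634 over 4096 to 5451, and from 1476 over 2739 to 4653. The ranges overlapped in both genotypes, and the median was higher by 0.62 on the log2 scale as the mean of WT and KO. Depth, estimated from the steps between low FPKM values, moved the same way, with medians of 784642 and 255366 reads in WT and 898577 and 504372 reads in KO. When each cell was thinned to 50000 estimated reads, 5 WT triple-negative cells fell out, and the medians were 2826 and 1915 genes in WT and 2940 and 1959 in KO.

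**Figure D1:**
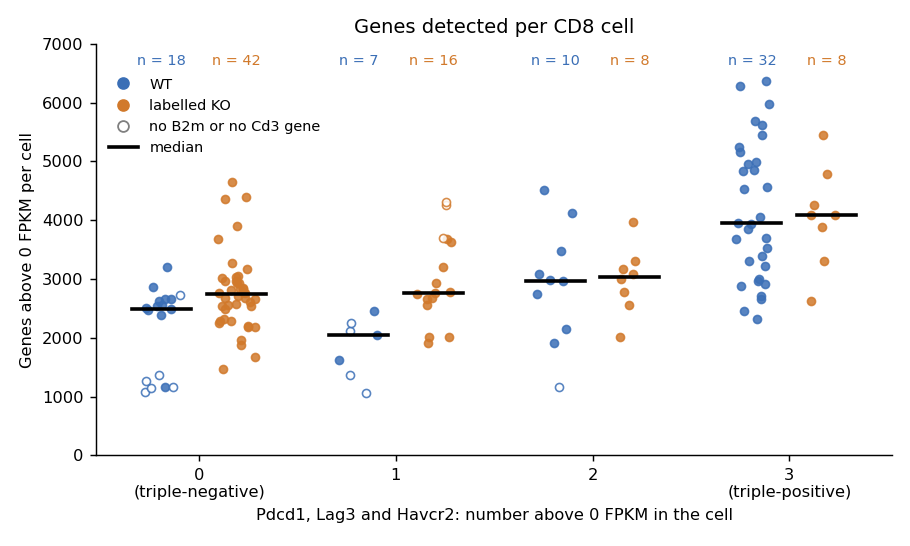
Genes above 0 FPKM in each kept CD8 cell (y axis) by how many of Pdcd1, Lag3 and Havcr2 the cell held (x axis). Blue points are WT cells, orange points cells labelled KO, open points cells without B2m or without any Cd3 gene, and black bars medians. The median was 3945 in WT triple-positive and 2495 in WT triple-negative cells, and 6 of the 18 WT triple-negative cells are open points.

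Il27ra, the targeted gene, was above 0 FPKM in 18 of 32 WT and 8 of 8 KO triple-positive cells, and in 5 of 18 and 22 of 42 triple-negative cells. Its RNA was thus present in the cells labelled KO, and 1 value per gene cannot show which exons were read. The cells are called KO here by their label alone. Library quality also moved with the classes. B2m, the light chain of class I molecules, or all of Cd3d, Cd3e and Cd3g, the CD3 chains of T cells, were missing from 6 of 18 WT triple-negative cells and from 0 cells of the other 3 classes. At least 3 of 5 CD8 T cell markers were found in 32 of 32 WT and 8 of 8 KO triple-positive cells. Among triple-negative cells they were found in 10 of 18 WT and 40 of 42 KO. Cd8b1 was above 0 FPKM in 40 of 40 triple-positive and 46 of 60 triple-negative cells. Cd8a, the other chain of the coreceptor, was above 0 in 39 of 40 and 51 of 60. In WT triple-negative cells alone, Cd8b1 was found in 11 of 18 and Cd8a in 12 of 18. Cd4 was above 0 in 1 WT triple-positive, 2 WT triple-negative and 0 KO cells of either class. At least 3 of 26 macrophage, class II and dendritic cell markers were found in 6 of 32 WT triple-positive, 1 of 18 WT triple-negative, 4 of 8 KO triple-positive and 3 of 42 KO triple-negative cells. Of the 12 macrophage and monocyte genes, 5, 4, 7 and 4 were seen in those classes. Their summed log2(FPKM + 1) reached 14.28, 9.27, 32.94 and 7.99, from a lowest of 0 in each, and Csf1r, Emr1, Fcgr3 and Ms4a7 were at 0 in all 4. Summed class II genes reached 17.77, 8.26, 33.87 and 65.89, with Ciita at 0 throughout. Dendritic cell markers were seen with 3, 3, 4 and 7 of 8 genes, NK cell markers with 4, 6, 5 and 5 of 6, CD4 and regulatory T cell markers with 4, 1, 3 and 3 of 5, and melanoma markers with 5, 4, 1 and 3 of 7. B cell and fibroblast markers reached at most 1 of 6 genes, endothelial markers 2 of 6, neutrophil markers 2 of 5 and red blood cell markers 2 of 4. Some single markers were widespread. Tyr, a melanoma marker, was above 0 in 40 of 40 triple-positive and 58 of 60 triple-negative cells. Cxcr2, a neutrophil marker, was above 0 in 38 and 53. Xcr1, 1 of the 26 markers above, was found in 24 and 26. Whether such values above 0 FPKM are background was not tested. The 5 CD8 T cell markers summed to medians of 51.26, 25.87, 53.60 and 42.71. The part in the results of cells without B2m or Cd3, with Cd4 or with markers of other cells was not tested. The closing section gives the coinhibitory median without each of them, and few other values.

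The comparison was therefore repeated in cells alike in library quality and in genes detected. Cells without B2m or without any Cd3 gene were left out, and triple-positive and triple-negative cells were paired within each genotype when they lay within 0.2 on the log2 scale of genes detected. This left 7 pairs in WT, with medians of 2711 and 2655 genes, and 7 pairs in KO, with medians of 4094 and 3896. These are called matched cells here, and this comparison was chosen after the data were seen.

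Most of the difference between the classes lay in one direction. Genes were described when 10% or more of the cells in a class had them above 0 FPKM. Of these 9742 genes, 2495 (25.6%) had a mean log2(FPKM + 1) higher by at least 1 in triple-positive cells in WT and in KO, and 33 (0.339%) had one lower by at least 1 in both. A gene with such a difference in both genotypes is called past the fold. The median difference over all genes was 0.79, with 1.00 in WT and 0.49 in KO, and 0.62 when FPKM was rescaled to the same sum in every cell. In matched cells the median was 0.00, and 590 genes (6.06%) were past the fold upward and 474 (4.87%) downward. A gene or list has to be read against those medians and shares.

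Among other coinhibitory receptors, Tigit and Ctla4 were much higher in triple-positive cells of both genotypes, and the rest of the list was mixed. The list had 17 genes that passed the detection filter of 19 in the table. Higher past the fold were 8 of the 17 (25.6% of all genes), and 0 were lower. The median difference was 1.68 over the list, 1.78 in WT and 1.75 in KO, against 0.79 over all genes. In matched cells 7 of the 17 were past the fold upward (6.06% of all genes). The median of the differences averaged over genotypes was -0.09, while the median was 1.35 in WT and 0 in KO. In matched cells the list was split between receptors that were higher and others that were level or lower.

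Tigit encodes a receptor for the poliovirus receptor family and lies on chromosome 16 at 43626137 to 43665125 (GRCm38). In WT its lowest, median and highest FPKM were 3.80, 2100 and 7309 in triple-positive cells, and 0, 4.59 and 179.8 in triple-negative cells. In cells labelled KO these values were 838.5, 2538 and 3589 in triple-positive cells and 0, 0 and 1011 in triple-negative cells. Tigit was above 0 in 40 of 40 triple-positive and 28 of 60 triple-negative cells, and the 2 classes overlapped at a few cells. Its mean log2(FPKM + 1) was 10.15 ± 2.61 (SD, n = 32) against 2.65 ± 2.72 (n = 18) in WT, and 10.97 ± 0.82 (n = 8) against 1.90 ± 2.93 (n = 42) in KO. The difference of 8.29, the largest of the 9742 genes, was 7.19 in matched cells.

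Ctla4, whose product competes with CD28 for its ligands, was found in 30 of 32 WT and 8 of 8 KO triple-positive cells, against 2 of 18 and 16 of 42 triple-negative cells. In WT its median was 399.9 FPKM in triple-positive cells, with a highest of 4200, and no triple-negative WT cell passed 64.25 FPKM. In KO the ranges overlapped, from 26.10 to 684.9 FPKM in triple-positive and from 0 to 919.1 FPKM in triple-negative cells. The difference was 6.59 (7.81 in WT and 5.37 in KO) and 5.47 in matched cells.

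Entpd1, the gene of CD39, an ectoenzyme that breaks down ATP outside the cell, followed the classes in WT more than in KO. Its RNA was found in 29 of 32 WT triple-positive cells (90.6%, 75 to 98%), and the gene was listed at 0 in all 18 WT triple-negative cells. Of those 18, 12 had B2m and a Cd3 gene, and for 0 of 12 a limit of 3 cells allows a share of up to 25%. In KO it was found in 4 of 8 and 4 of 42 cells. The differences were 6.80 in WT and 2.65 in KO, and whether they differ was not tested. Klrc1, which encodes the NKG2A chain, had the reverse order, with 2.71 in WT and 6.13 in KO, and was found in 8 of 8 KO triple-positive cells. The other genes past the fold were 4632428N05Rik (Vsir, 2.52), Cd200r1 (2.33), Cd244 (2.10) and Cd96 (1.68), and all of the 8 but Cd96 were past it in matched cells as well.

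Several receptors of the list had no common direction. Btla, an inhibitory receptor that binds HVEM, was 0.20 higher in WT and 2.42 lower in KO, where it was listed at 0 in all 8 triple-positive cells. Cd274, which encodes the ligand PD-L1, differed by 0.61 in WT and by -1.74 in KO. Klrg1 gave 1.86 and -0.21, Cd160 gave 0.71 and -0.11, and Lair1 gave 0.17 and -0.38. Pdcd1lg2 gave -0.25 and 2.12. Cd101 and Cd200 were higher in both genotypes without reaching 1 in both, with mean differences of 1.77 and 1.29. Nt5e, which encodes CD73, was lower in both, by 0.31 in WT and by 1.45 in KO. The number of the 19 receptor genes above 0 per cell had a median of 7 in WT and 8 in KO triple-positive cells, against 3 and 4 in triple-negative cells.

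Transcription factors of activated, effector and exhausted T cells were higher in triple-positive cells across most of the list. Of 25 factors, 16 were past the fold upward (25.6% of all genes) and 1 downward (0.339%). The median was 2.43, with 2.46 in WT and 2.21 in KO. In matched cells 10 were past the fold upward (6.06%) and 1 downward (4.87%), with a median of 1.47. This list kept a median well above that of all genes in matched cells.

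Nr4a2, an orphan nuclear receptor induced by antigen receptor signals, had the largest difference of the factors. It was found in 26 of 32 WT and 8 of 8 KO triple-positive cells and in 2 of 18 and 8 of 42 triple-negative cells. In matched cells it was above 0 in 7 of 7 triple-positive cells of each genotype, against 2 of 7 and 1 of 7, and the difference was 6.33, beside 6.43 in all cells. Nr4a1 and Nr4a3, its relatives, were 2.30 and 2.13 higher, but -0.33 and 0.45 in matched cells. Of the 3 relatives, Nr4a2 alone had a matched difference near its value in all cells.

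Tox, the factor tied to the exhausted state, was found in 28 of 32 triple-positive cells of WT (87.5%, 71 to 96.5%) and in 5 of 8 of KO (62.5%, 24.5 to 91.5%). Among triple-negative cells it was found in 3 of 18 (16.7%, 3.58 to 41.4%) and 6 of 42 (14.3%, 5.43 to 28.5%). Its mean was 6.74 ± 3.53 (n = 32) against 0.83 ± 2.37 (n = 18) in WT and 4.77 ± 3.96 (n = 8) against 1.04 ± 2.69 (n = 42) in KO, a difference of 4.82 that was 3.87 in matched cells. The classes overlapped, since the highest triple-negative value was 864.8 FPKM. Its relative Tox2 was rare, in 5 triple-positive cells in all, and was listed at 0 in both triple-negative classes.

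Bhlhe40, a repressor that supports cytokine output, was 6.23 higher, Irf8 was 5.60 higher and Hif1a, the oxygen-sensing factor, was 4.48 higher. Batf, an AP-1 partner of Irf4, was 3.78 higher, and Prdm1, which encodes Blimp-1, was 2.29 higher. All 5 were above 0 in matched cells, at 5.21, 2.43, 2.58, 2.13 and 2.15. Id2, a factor of effector cells, was 3.75 higher in all cells but -0.03 in matched cells. Rbpj (4.32), Nfatc1 (3.46), Stat3 (3.27), Runx2 (3.01), Eomes (2.43) and Irf4 (1.29) completed those past the fold. Maf and Nfil3 were higher in WT alone (2.46 and 2.25), with -0.29 and -0.24 in KO, and the difference between genotypes was not tested. The remaining factors, Ikzf3, Tbx21, Runx3, Zeb2 and Ikzf2, were higher in both genotypes, with mean differences of 0.75 to 2.57.

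Nfatc2, which encodes the calcium-regulated factor NFAT1, was the factor that ran the other way. It was found in 9 of 32 WT and 1 of 8 KO triple-positive cells and in 9 of 18 and 15 of 42 triple-negative cells. The differences were -1.83 in WT and -1.72 in KO, and -2.96 in matched cells, while Nfatc1 was higher by 3.42 and 3.49.

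Genes of target cell killing were higher in triple-positive cells. Of 15 cytotoxic granule genes, 8 were past the fold upward (25.6% of all genes) and 0 downward, with a median of 3.70 (4.56 in WT and 2.92 in KO). In matched cells the median was 1.53, with 3 past the fold upward (6.06% of all genes), Gzmb, Prf1 and Fasl, and 1 downward (4.87%), Lamp1. Members of such small counts are named after their values were seen.

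Prf1 encodes perforin, which opens the target cell membrane. It was above 0 in 29 of 32 WT and 7 of 8 KO triple-positive cells and in 3 of 18 and 13 of 42 triple-negative cells. Its difference was 7.47 in WT and 7.51 in KO, and 6.19 in matched cells. Gzmb, which encodes the protease granzyme B, was found in 31 of 32 WT triple-positive cells, with a median of 2095 FPKM, and in 2 of 18 WT triple-negative cells. In KO it was found in 5 of 8 and 12 of 42 cells, and of the cells in those 2 classes the highest KO value, 17249 FPKM, was in a triple-negative cell. Its difference was 9.29 in WT and 4.69 in KO. Gzma, another granzyme, did not follow, at 0.79 in WT and -2.90 in KO, where all 8 triple-positive cells were listed at 0. Serpinb9, an inhibitor of granzyme B, was 4.84 higher.

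Ccl3 and Ccl4, chemokines that attract other immune cells, were also higher. Ccl3 was listed at 0 in all 60 triple-negative cells, 54 of them with B2m and a Cd3 gene. For the 54, a limit of 3 cells allows a share of up to 5.56%. It was found in 20 of 32 triple-positive cells of WT (62.5%, 43.7 to 78.9%) and in 7 of 8 of KO (87.5%, 47.4 to 99.7%). Its lowest, median and highest FPKM were 0, 114.1 and 43038 in WT triple-positive cells and 0, 2355 and 8098 in KO triple-positive cells. In matched cells it was found in 5 of 7 WT and 6 of 7 KO triple-positive cells and in 0 of 7 of either triple-negative class. The mean difference of 8.09 depends on the pseudocount of 1, as 1 side is at 0. Ccl4 beside it was found in 26 of 32 and 7 of 8 triple-positive cells and in 3 of 18 and 8 of 42 triple-negative cells, a difference of 7.23. Their RefSeq spans overlap, so the split of reads between the pair is uncertain.

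Ifng, which encodes interferon-gamma, was found in 17 of 32 WT and 7 of 8 KO triple-positive cells, against 1 of 18 and 4 of 42 triple-negative cells. It was 3.78 higher in WT and 7.40 in KO, and 4.97 in matched cells. Of 12 cytokine and chemokine genes, 5 were past the fold upward (25.6% of all genes) and 0 downward, with a median of 1.64. The 3 just described were past it in matched cells (6.06% of all genes), where the median was 1.25. Ltb and Ccl5 were the other 2 of the 5. Il21 was found in 4 WT triple-positive cells and 1 WT triple-negative cell, and Lta in 0 triple-positive cells and 6 triple-negative cells.

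**Figure D2:**
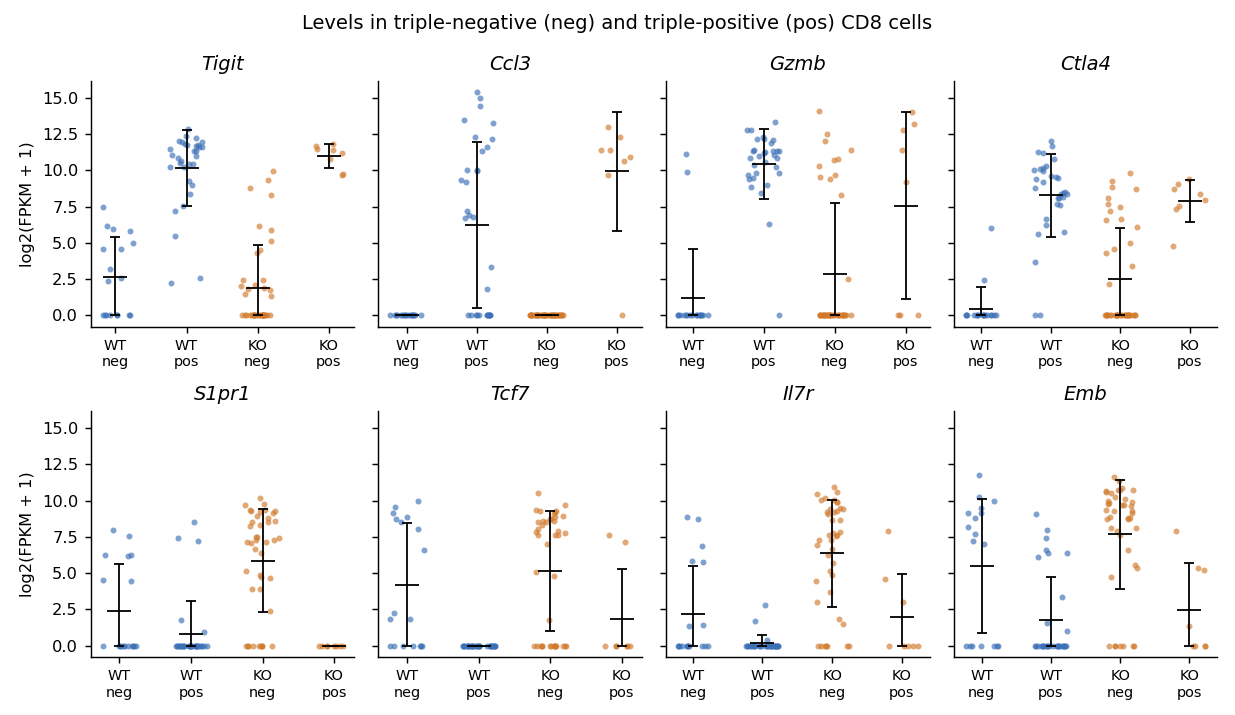
Level of 8 genes, in log2(FPKM + 1) on the y axis, in each triple-negative (neg) and triple-positive (pos) cell of WT (blue) and of cells labelled KO (orange). Horizontal marks are means and bars are 1 SD over cells, stopped at 0 below. Ccl3 lies at 0 in all 60 triple-negative cells and S1pr1 at 0 in all 8 KO triple-positive cells, while Gzmb and Ctla4 overlap between the KO classes.

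Genes of naive, memory and stem-like T cells were lower in triple-positive cells, against the upward shift of the median gene. Of 18 genes that passed the filter, 9 were past the fold downward, against 0.339% of all genes, and 1 was past it upward, against 25.6%. The median was -1.41, with -1.03 in WT and -2.13 in KO. In matched cells it was -2.31, with 9 past the fold downward (4.87% of all genes), and it was below 0 in WT and in KO. Of those 9, 7 were also among the 9 in all cells, and Lef1 and Slamf6 stood in for Klf2 and Klf3. The number of the 22 genes in the table above 0 per cell had a median of 4 in WT and 3 in KO triple-positive cells, against 6.5 and 9 in triple-negative cells, while genes detected in all had the opposite order.

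Tcf7, which encodes TCF-1, was listed at 0 in all 32 WT triple-positive cells. A limit of 3 cells allows up to 9.38%, and the exact interval for 0 of 32 reaches 10.9%. Tcf7 was above 0 in 11 of 18 WT triple-negative cells (61.1%, 35.8 to 82.7%). All 11 had B2m and a Cd3 gene, out of 12 such cells. In KO it was found in 2 of 8 (25.0%, 3.19 to 65.1%) and 27 of 42 (64.3%, 48 to 78.5%), with a median of 198.7 FPKM in triple-negative cells. Matched WT cells had it in 0 of 7 triple-positive and 7 of 7 triple-negative cells, and matched KO cells in 2 of 7 and 3 of 7. The matched difference was -7.60 in WT and -1.34 in KO. The 7 matched KO triple-negative cells included 2 with Flt3, a dendritic cell marker found in 2 of all 42. Why the matched differences of the genotypes lay apart was not tested.

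Il7r, whose product binds IL-7, a T cell survival factor, was found in 3 of 32 WT and 3 of 8 KO triple-positive cells. Among triple-negative cells it was found in 7 of 18 WT and 35 of 42 KO, and no WT triple-positive cell passed 6.02 FPKM. Its difference was -2.01 in WT and -4.43 in KO. S1pr1, a lipid receptor used for tissue exit, was listed at 0 in all 8 KO triple-positive cells and found in 33 of 42 KO triple-negative cells, with differences of -1.60 in WT and -5.86 in KO. Ccr7, the chemokine receptor for lymph node entry, was found in 1 of 40 triple-positive and 19 of 60 triple-negative cells. Bcl2, an inhibitor of cell death, was 1.88 lower in WT and 3.29 lower in KO. Satb1 (-2.09), Klf2 (-1.77) and Klf3 (-1.05), factors of resting T cells, were also past the fold.

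Other members of the list were not past the fold downward over all cells, though Lef1 and Slamf6 were in matched cells. Lef1, the relative of Tcf7, was found in 15 of 32 WT triple-positive and 7 of 18 WT triple-negative cells, but in 0 of 8 and 25 of 42 in KO. Ly6c2, a memory cell surface gene, was 3.33 higher in WT and 5.15 lower in KO, and -0.34 in matched WT cells. Slamf6, a marker of the stem-like pool, differed by -0.07 and -1.27. Foxo1, Bach2, Myb, Il6ra and Il6st had mean differences between -0.77 and 0.58. Cd27, a costimulatory receptor that the list holds as a memory gene, ran the other way, at 5.29 in WT and 3.05 in KO, and was found in 38 of 40 triple-positive cells.

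Tcf7, S1pr1, Il7r and Bcl2 were among the 12 genes named for the most negative differences, and 7 others outside the list were too. Emb, which encodes embigin, an adhesion protein, had the most negative value of the 9742 genes, -4.46 (-3.74 in WT and -5.18 in KO). It was found in 14 of 40 triple-positive and 46 of 60 triple-negative cells. Itgb7, an integrin chain of gut homing, was 3.94 lower and Gpr18, a G protein-coupled receptor, was 3.07 lower. Klhl6 (-2.88), Pde2a, a phosphodiesterase (-2.53), and Tgtp2, an interferon-induced GTPase with a near-identical neighbour (-2.47), were also past the fold. Gramd3 (-3.40) was named by the same rule but differed by -0.10 in WT and -6.70 in KO. In WT it was above 0 in 19 of 32 triple-positive cells. It was above 0 in 10 of the 12 WT triple-negative cells with B2m and a Cd3 gene. Matched WT cells had Gramd3 in 3 of 7 triple-positive and 7 of 7 triple-negative cells. Emb and Itgb7 were above 0 in 11 and 9 of the 12 WT triple-negative cells with B2m and a Cd3 gene.

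Receptors for homing had no common direction. Of 12 chemokine receptor genes, 4 were past the fold upward (25.6% of all genes) and 2 downward (0.339%), with a median of 0.20. In matched cells their median was 0.81, with -0.07 in WT and 0.31 in KO. Cxcr6, a receptor of tissue-resident and tumour T cells, was found in 40 of 40 triple-positive cells, with medians of 2299 FPKM in WT and 2395 in KO, and in 7 of 18 and 27 of 42 triple-negative cells. Its difference was 5.92. Cx3cr1, the fractalkine receptor, was 3.16 higher, and Ccr8 was also past the fold. S1pr1 and Ccr7 were the 2 lower genes. Of 15 integrin and adhesion genes, 6 were past the fold upward (25.6% of all genes) and 2 downward (0.339%). Their median of 1.74 was -0.08 in matched cells (0.06 in WT and 0 in KO). Adam8, a membrane protease, was 5.41 higher, the integrin chain Itgav 3.79 and the integrin chain Itgb2 3.05, while Itgae, which encodes CD103, was listed at 0 in all triple-positive cells and found in 7 triple-negative cells.

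The antigen receptor and its partners were higher in triple-positive cells. Of 23 genes of the receptor complex and its proximal signalling, 15 were past the fold upward (25.6% of all genes) and 0 downward. Their median was 3.08. In matched cells 10 were past the fold upward (6.06%). The median there was 1.91 (1.38 in WT and 2.56 in KO), the highest of the 18 lists in matched cells. Zap70, the kinase that binds the CD3 chains, was above 0 in 40 of 40 triple-positive cells and in 9 of 18 and 27 of 42 triple-negative cells. Its difference was 4.80, and 2.81 in matched cells. Ptprc, which encodes CD45, gave 2.97 in WT and -0.02 in KO, and Vav1 gave 1.25 and -0.13. The lower ends of WT triple-negative cells include libraries without Cd3 genes, as described above.

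NK-type receptors had no common direction, with a median of 1.20 over 8 genes (-0.37 in WT and 2.35 in KO). Of the 8, 2 were past the fold upward (25.6% of all genes), Klrc1 and Klrk1. In matched cells the median of the 8 was -0.45, with -2.25 in WT and 1.98 in KO. Costimulatory and activation receptors had a median of 3.01 over 17 genes, with 12 past the fold upward (25.6% of all genes). In matched cells the median was 1.12, with 5 past the fold upward (6.06%). The matched medians of the genotypes lay apart, at -0.09 in WT and 2.35 in KO. Tnfrsf9, which encodes 4-1BB, was found in 23 of 32 WT and 7 of 8 KO triple-positive cells and in 2 of 18 and 8 of 42 triple-negative cells, a difference of 6.75. Tnfrsf18, which encodes GITR, was 4.97 higher. Cd69, an early activation marker that also holds cells in tissue, was not higher, at 0.22 in WT and -1.76 in KO.

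Immediate early and feedback genes were mixed. Of 29, 11 were past the fold upward (25.6% of all genes) and 0 downward, with a median of 1.35. In matched cells the median was 0.54 (-0.28 in WT and 0.98 in KO). There 5 were upward (6.06% of all genes) and 3 downward (4.87%), the latter being Fos, Jun and Dusp5. Rgs16, a brake on G protein signals, was found in 26 of 32 WT and 7 of 8 KO triple-positive cells and in 2 of 60 triple-negative cells. Its difference was 8.09, and 6.23 in matched cells. Rgs2, of the same family, was 4.68 higher, and Dusp4, a phosphatase of MAP kinases, was 3.99 higher, at 1.88 in WT and 6.09 in KO. Plek (6.58) and Litaf (6.68) were also among the 12 genes with the largest differences.

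Cell division genes differed between the genotypes and between all cells and matched cells. At least 5 of 12 division genes were found in 16 of 32 WT triple-positive cells (50%, 31.9 to 68.1%), 1 of 18 WT triple-negative cells (5.56%, 0.141 to 27.3%), 1 of 8 KO triple-positive cells (12.5%, 0.316 to 52.7%) and 4 of 42 KO triple-negative cells (9.52%, 2.66 to 22.6%). Over the 39 genes of the list the median was 3.22 in WT and 0.50 in KO, and 8 were past the fold upward (25.6% of all genes). In matched cells the median was -1.15, with 0 in WT and -2.35 in KO. There 2 were past the fold upward (6.06% of all genes), Cenpa and Mcm6, and 6 downward (4.87%). Matching changed the share of dividing cells. In WT triple-positive cells Mki67 was found in 18 of 32, but in 3 of the 7 matched, and Ccnb2 in 13 and 0. In KO triple-negative cells Mki67 was found in 5 of 42, but in 3 of the 7 matched, and Ccnb2 in 4 and 3. The part of this in the matched medians was not tested. Mcm6, a part of the replicative helicase, was found in 28 of 32 WT and 8 of 8 KO triple-positive cells and was 5.72 higher, and 3.49 higher in matched cells. Tyms, an enzyme of thymidylate synthesis, was 0.50 higher in all cells and 2.21 lower in matched cells, and its direction also turned on rescaling (-0.48).

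Metabolic genes were higher in all cells and much less so in matched cells. Of 32 oxidative phosphorylation genes 30 were past the fold upward (25.6% of all genes), with a median of 3.32. In matched cells 3 were upward (6.06%) and 1 downward (4.87%), with a median of 0.58 (1.13 in WT and -0.10 in KO). Of 15 glycolysis genes 13 were past the fold upward (25.6%), with a median of 3.53, and in matched cells 6 were (6.06%), with a median of 0.90. Pgam1 and Tpi1, enzymes of the pathway, were 5.37 and 5.01 higher, and 1.91 and 1.63 in matched cells. Slc2a1, a glucose transporter, gave 0.49 in WT and -1.05 in KO. Cholesterol synthesis genes had a median of 1.40 over 16 genes, with 7 past the fold upward (25.6% of all genes). Their median in matched cells was -0.10 (0.26 in WT and -0.53 in KO). Housekeeping genes had a median of 4.26 in WT and 0.61 in KO, and -0.09 in matched cells, with 4 of 19 past the fold in all cells (25.6% of all genes).

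Interferon-stimulated genes had a median of 1.29 over 31 genes, with 14 past the fold upward (25.6% of all genes). In matched cells the median was 0.06, with 3 upward (6.06%) and 3 downward (4.87%). Ifi27l2a (4.45) and Psmb9, an immunoproteasome part (4.39), were the highest, and Rtp4 (-1.23) was the lowest. Genes of the IL-27 receptor and STAT signalling had a median of 1.45 over 19 genes, with 10 upward (25.6% of all genes). Their median in matched cells was 0.09 (0.38 in WT and -0.08 in KO). Il10ra, the receptor chain for IL-10, was 3.96 higher and Cish, a feedback inhibitor of cytokine signals, 3.73 higher, while Socs3, another such inhibitor, was 0.71 lower in WT and 1.16 lower in KO. Il27ra itself was 1.84 higher in WT and 3.28 higher in KO over all cells. Matched WT cells had it in 1 of 7 triple-positive and 3 of 7 triple-negative cells, the opposite order. Matched KO cells had it in 7 of 7 and 3 of 7.

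**Figure D3:**
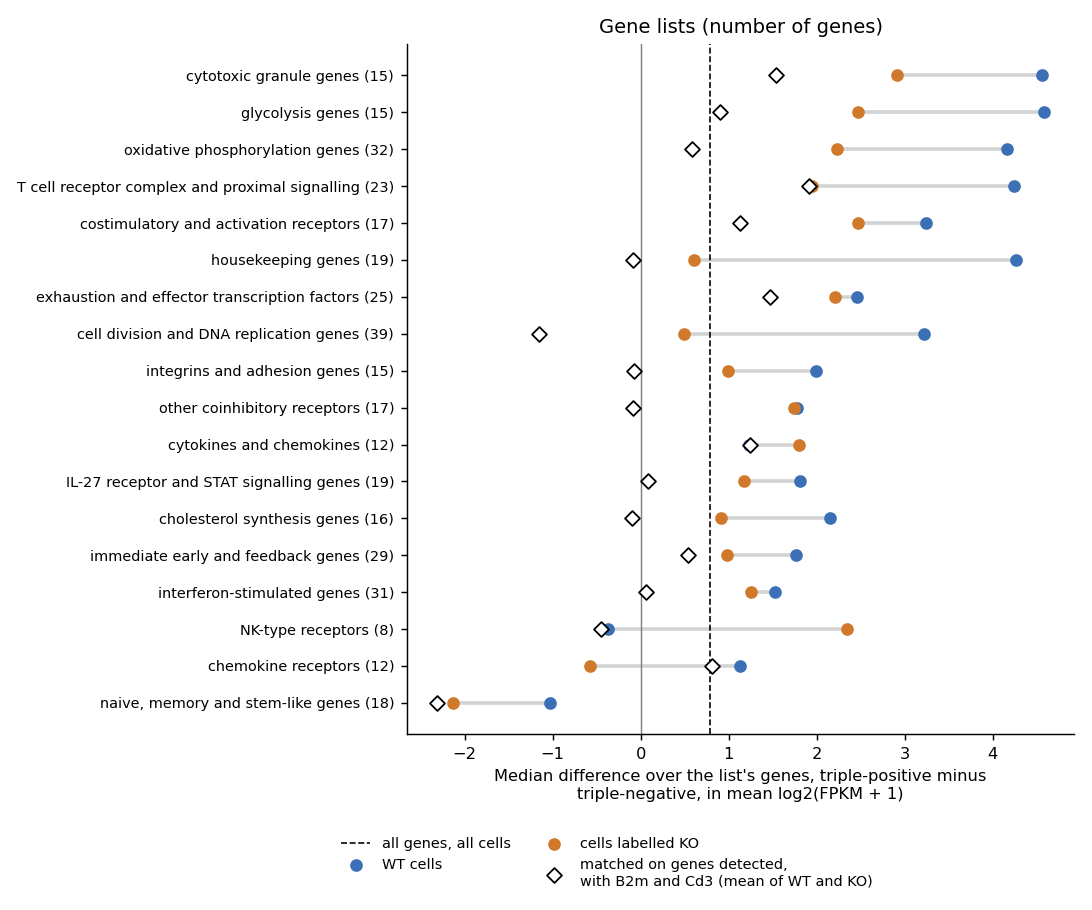
Median difference over the genes of each list, triple-positive minus triple-negative, in mean log2(FPKM + 1), with the number of genes in brackets. Blue points are WT, orange points cells labelled KO, open diamonds matched cells, and the dashed line is the median of all genes (0.79). Naive and memory genes lie below 0 in all 3, while cell division genes lie at 3.22 and 0.50 and at -1.15 in matched cells.

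Cells with 1 or 2 of the 3 genes were used by neither class. For coinhibitory receptors, the mean over the list's genes per cell in WT was 0.98 ± 0.64 with 0 genes (SD, n = 18), 1.15 ± 0.82 with 1 (n = 7), 1.73 ± 1.20 with 2 (n = 10) and 3.31 ± 0.89 with 3 (n = 32). In KO it was 1.77 ± 0.89 (n = 42), 1.96 ± 0.61 (n = 16), 2.02 ± 0.94 (n = 8) and 3.56 ± 1.10 (n = 8). The mean of cells with 1 gene lay within 1 SD of the triple-negative mean, and in both genotypes the widest step was from 2 genes to 3. The transcription factor list had the same widest step, with 2.32 and 4.38 in WT and 2.94 and 4.46 in KO. Without the cells that lacked B2m or Cd3 genes the WT coinhibitory levels were 1.29 (n = 12), 1.97 (n = 3), 1.92 (n = 9) and 3.31 (n = 32), so the order of 1 and 2 genes did not hold. The widest step was still from 2 genes to 3, for transcription factors as well (2.56 and 4.38). Genes detected moved with this order in KO, with medians of 2739, 2770, 3042 and 4096. In WT the medians were 2495, 2048, 2974 and 3945. The widest step in genes detected was also from 2 genes to 3 in both genotypes.

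Naive and memory genes in cells with 1 or 2 of the 3 genes lay between the classes in KO, at 3.54 ± 1.36 with 0 genes, 2.73 ± 1.36 with 1, 2.59 ± 0.78 with 2 and 1.42 ± 0.58 with 3. In WT the order was not kept over all cells, with 2.28, 1.29, 1.85 and 1.58. Among WT cells with B2m and a Cd3 gene it was 3.37 (n = 12), 2.36 (n = 3), 2.05 (n = 9) and 1.58 (n = 32). Tigit was found in 5 of 7 WT cells with 1 gene and 8 of 10 with 2, and in 8 of 16 and 6 of 8 in KO. Prf1 was found in 1 of 7 and 2 of 10 in WT and in 5 of 16 and 3 of 8 in KO, where triple-positive cells had it in 29 of 32 and 7 of 8.

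**Figure D4:**
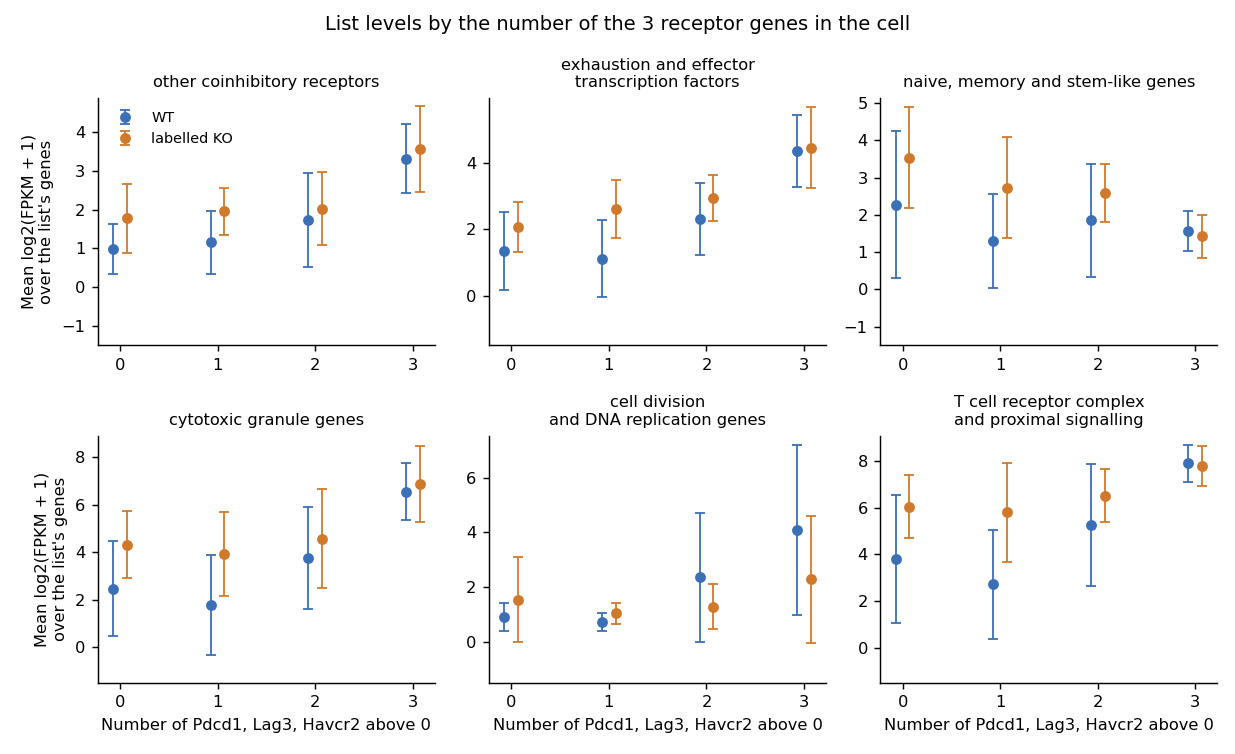
Mean log2(FPKM + 1) over the genes of 6 lists (y axis) in cells with 0, 1, 2 or 3 of Pdcd1, Lag3 and Havcr2 (x axis). Points are means over cells, bars are 1 SD over cells, blue WT and orange cells labelled KO. Coinhibitory receptors reach 3.31 in WT and 3.56 in KO with 3 genes, and naive and memory genes in KO go from 3.54 with 0 genes to 1.42 with 3.

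Triple-positive cells were alike in some genes and varied in others. Of the 40 cells, Tigit and Cxcr6 were above 0 in 40, Ctla4 in 38, Gzmb and Prf1 in 36 each, and Tox and Entpd1 in 33 each. Ifng was found in 24, Mki67, a marker of dividing cells, in 21, and Cd69 in 17. All 21 cells with Mki67 had Gzmb, and 20 of them had Entpd1. The genes in this paragraph were picked after their values were seen. Il7r was found in 6 of the 40, Slamf6 in 5 and Tcf7 in 2, and neither of the 2 cells with Tcf7 had Entpd1 or Mki67.

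Within the triple-positive class the genotypes were also set side by side. The 8 cells labelled KO were higher than the 32 WT cells in 2 of 39 cell division genes, with a median of -1.87, and in 8 of 8 NK-type receptor genes, with a median of 2.98. Immediate early genes were higher in 23 of 29, with a median of 1.13, and other coinhibitory receptors in 9 of 17, with a median of 0.15. The median over all genes was -0.08. Within the triple-negative class, KO minus WT had a median of 0.33 over all genes and 3.82 over housekeeping genes, where WT holds the 6 cells without B2m or Cd3 genes. With 8 cells in 1 class and 1 sample per genotype, none of these could be tested.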

How the data were processed

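Single-cell RNA from tumour CD8 T cells was measured with Smart-seq2, with no molecular identifiers described. The deposited values are FPKM, which per the labels the authors had normalized between libraries by TMM. Per the submitters' processing notes, Bowtie, RSEM and mm10 were used; versions and annotation are not given in the sources used here. All columns of CD8 cells were matched to samples by title, and 0 columns of other samples were left unmapped. No caller for doublets was run, as cells were lysed in plates and not in droplets, per the labels' protocols, and wells with more than 1 cell were not looked for.

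Differences are of mean log2(FPKM + 1), so low genes are understated, with a pseudocount of 1 and equal weight for WT and KO. With 1 sample per genotype no p-value was computed. Shares have 95% intervals by the exact Clopper-Pearson method, for counting error alone. Where a count of 0 is said to allow a share, the limit is a rougher one of 3 cells. Reads per cell were estimated from the steps of low FPKM values. They are estimates only, since a median of 63.5% of values under 3.5 reads lay within 0.1 of a whole number.

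Named genes were the 12 highest and 12 lowest differences of the same sign in WT, KO and cells matched on genes detected, the 3 highest and 3 lowest of each function list, and all of the coinhibitory, transcription factor and naive lists. Results for some of these genes are not reported here. Members, lists and rules were chosen with earlier results of these data known. Of the list symbols, 4 were unmatched and 3 matched under an older name. Positions are from RefSeq, GRCm38. Alternatives were 17 listed at the outset and 4 chosen after seeing the data. Scripts were tested on simulated data and used Python 3.11.15, NumPy 2.4.6, pandas 2.3.3, SciPy 1.17.1 and Matplotlib 3.10.9.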

Additional observations from a re-analysis of the deposited data

Results flagged for a closer look

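In 2 lists the difference between triple-positive and triple-negative cells had opposite signs in WT and in KO over all cells. NK-type receptors had a median of -0.37 in WT and 2.35 in KO, over 8 genes. Chemokine receptors had a median of 1.13 in WT and -0.58 in KO, over 12 genes. In matched cells the NK-type medians were -2.25 in WT and 1.98 in KO. The chemokine receptor medians there were -0.07 in WT and 0.31 in KO, so their signs over all cells were not kept. Whether the genotypes differ was not tested, and the KO triple-positive class held 8 cells.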

How the results depend on the processing

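The 24 named genes were chosen for having the same sign in WT, in KO and in cells matched on genes detected, so those alternatives could not reverse them. The reported values were medians of 1.68 for coinhibitory receptors, 2.43 for transcription factors, -1.41 for naive and memory genes, 3.70 for cytotoxic genes, 1.35 for immediate early genes and 1.87 for cell division genes. Past the fold were 25.6% of genes upward and 0.339% downward, and the log2 ratio of genes detected was 0.62. The cause of the changes below was not tested, apart from the number of genes or cells that an alternative leaves.

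Pooling cells of both genotypes gave coinhibitory 1.57, transcription factors 2.10 and immediate early 0.33. WT alone gave coinhibitory 1.78, and KO alone gave 1.75 and transcription factors 2.21. A pseudocount of 0.1 gave coinhibitory 2.52, transcription factors 3.56, naive -2.20, cytotoxic 5.11, immediate early 2.06 and 0.739% downward. A pseudocount of 10 gave coinhibitory 0.84, transcription factors 1.51, cytotoxic 2.27, immediate early 0.75, 11.5% upward and 0.123% downward. The log2 of mean FPKM gave coinhibitory 0.57, transcription factors 1.715, naive -2.82, cytotoxic 1.77, immediate early 0.24 and 3.21% downward. Without the detection filter coinhibitory was 1.29 and cytotoxic 2.41, with 10.7% upward and 0.141% downward, and with a 30% filter coinhibitory was 2.10, with 39.7% upward.

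Keeping cells with at least 2000 genes gave coinhibitory 1.35, transcription factors 2.21, naive -2.33 and 0.770% downward, and with at least 500 genes coinhibitory 1.79, transcription factors 2.73 and 0.216% downward. A threshold of 10 FPKM for the 3 receptors gave coinhibitory 1.58. Leaving out cells without B2m or Cd3 gave coinhibitory 1.26, transcription factors 2.25, naive -2.26 and 0.719% downward. Leaving out cells with markers of other cells gave coinhibitory 1.40. It left 26 WT and 4 KO triple-positive cells, and 17 WT and 39 KO triple-negative cells. Leaving out cells with Cd4 gave coinhibitory 1.37. Leaving out cycling cells gave coinhibitory 0.90, 16.8% upward and a ratio of 0.46.

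Matching on genes detected turned coinhibitory to -0.23, cell division to -1.15 and cholesterol synthesis to -0.16, with transcription factors 1.645, cytotoxic 1.647, immediate early 0.64, 6.55% upward, 3.93% downward and a ratio of 0.0726. Genes detected as a covariate gave coinhibitory 0.39, transcription factors 1.47, naive -2.32, cytotoxic 2.13, immediate early 0.16, 5.70% upward and 3.32% downward. It turned cell division to -0.53, integrins to -0.21, IL-27 and STAT genes to -0.00746 and housekeeping genes to -0.0918.

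The next 4 were chosen after seeing the data. Rescaling gave coinhibitory 1.32, transcription factors 2.115 and 0.667% downward. Matching on estimated reads gave coinhibitory 0.71, transcription factors 1.54, cytotoxic 2.13, immediate early 0.39, 7.61% upward, 4.96% downward and a ratio of 0.0441, with cell division at -0.89, cholesterol synthesis at -0.44, integrins at 0 and housekeeping genes at -0.0404. Thinning, which leaves out genes without a length, gave coinhibitory 0.94, transcription factors 2.16 and 0.786% downward. Matched cells with B2m and Cd3 gave transcription factors 1.47, naive -2.31, cytotoxic 1.53, immediate early 0.54, 6.06% upward, 4.87% downward and a ratio of 0.0508. There coinhibitory was -0.0869 (1.35 in WT and 0 in KO), cell division -1.15 (0 in WT and -2.35 in KO), cholesterol synthesis -0.10, integrins -0.0794 and housekeeping genes -0.0924. NK-type receptors, at 1.20 in all cells, had a median of -0.37 in WT, -0.11 pooled, -0.27 from the log2 of mean FPKM, -0.04 with the covariate, -0.22 matched on genes, -0.56 matched on reads and -0.45 in matched cells with B2m and Cd3. No paired analysis was possible because each genotype is 1 sample and the numbers in the labels count cells.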
